A study of Mus musculus with 16 samples.

Results

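The neuropeptide genes described here are Sst, Npy, Vip, Cck, Pnoc, Penk, Pdyn, Tac1, Tac2 and Crh, 10 of the 35328 genes in the count table, chosen by matching the Ensembl identifiers of the table to these symbols in the GENCODE mouse annotation. All 10 passed the count filter and are among the 17830 genes tested. The libraries came from dorsal hippocampus RNA of male C57Bl6/J mice, 16 in all, in 4 groups of 4 biological replicates. Home cage water (HC_water) mice drank water and stayed in their cage, and home cage caffeine (HC_Caffeine) mice drank caffeine at 0.3 g/L for 2 weeks from 8 to 9 weeks of age. Learning water (MWM_water) and learning caffeine (MWM_Caffeine) mice received the same 2 treatments and were also trained for 3 days in the Morris water maze, a spatial memory task, with tissue taken 1 hour after the last trial. No engineered allele is named for any group. Home cage mice did not swim, so spatial learning cannot be told apart from the handling and exercise of the maze. The tissue was not sorted into cell types, so fewer cells of a type and less RNA per cell cannot be told apart either.

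Neuropeptides are made as long precursor proteins that are cut by convertases inside dense-core granules, and the released peptides act slowly on G protein-coupled receptors. In the hippocampus Sst, Npy, Vip and Cck are used to tell classes of GABAergic interneurons apart, Cck is also made by pyramidal cells, and Pdyn is known from the granule cells of the dentate gyrus. Several of these genes were among the earliest in which transcription driven by cAMP and the factor CREB was described, Sst foremost, which is why their promoters are a textbook case of regulation by neuronal activity.

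Of the 10 genes, Pnoc, Penk and Pdyn encode the precursors of opioid-related peptides, and Tac1 and Tac2 those of tachykinins. The peptides of each family share a short core. Pnoc and Penk, but not Pdyn, were among the genes that passed the test below, so the coding stretches are shown. They are written 5′ to 3′ on the coding strand from GENCODE M21 transcripts (build mm10), with the 4 codons of the opioid core or the last 5 codons of the tachykinins in capitals.
Pnoc, nociceptin, 17 codons, chr14:65404842-65404892, minus strand: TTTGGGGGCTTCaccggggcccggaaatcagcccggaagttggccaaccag
Penk, Met-enkephalin, 5 codons, chr4:4134334-4134348, minus strand: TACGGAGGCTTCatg
Pdyn, dynorphin A, 17 codons, chr2:129688094-129688144, minus strand: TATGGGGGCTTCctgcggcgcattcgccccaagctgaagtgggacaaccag
Tac1, substance P, 11 codons, chr6:7556732-7556764, plus strand: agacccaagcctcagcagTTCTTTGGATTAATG
Tac2, neurokinin B, 10 codons, chr10:127729116-127729145, plus strand: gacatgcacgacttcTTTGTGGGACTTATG

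Each stretch lies within 1 coding exon. The opioid core is encoded 7 times in the 268 codons of Penk, 3 times in the 248 codons of Pdyn and once in the 187 codons of Pnoc. The amino acids of Met-enkephalin are encoded 6 times in Penk. These copies were counted by the encoded amino acids and not by identical bases. Cut sites around each copy were not checked.

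For 7 of the 10 genes RefSeq (build GRCm38.p6) gave a promoter window of 300 bases around the transcription start, and for Pnoc, Penk and Crh no window was used here. The core of the cAMP response element, TGACG on either strand, was present in the windows of Sst, Vip, Cck and Tac1, 4 of 7, and in 20.8% of 32851 windows of the same length. The full palindrome TGACGTCA, which contains TGACG, was present in Sst alone, 1 of 7, and in 1.79% of all windows. The AP-1 site TGANTCA was found in none of the 7 and in 7.81% of all windows, and TATAAA was found in Vip and in 13.6% of all windows. The 100 bases before the start are shown for the 4 genes with TGACG because the element is the best known link between neuronal activity and peptide genes, and the responses of these 4 genes to learning are compared below. Capitals mark TGACG or its reverse complement, and the palindrome in Sst.
Sst, chr16:23890845-23890944, minus strand: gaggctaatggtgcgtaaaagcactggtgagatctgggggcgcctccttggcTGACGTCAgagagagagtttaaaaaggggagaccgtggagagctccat
Vip, chr10:5639118-5639217, plus strand: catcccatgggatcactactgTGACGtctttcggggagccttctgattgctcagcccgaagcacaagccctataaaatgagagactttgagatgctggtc
Cck, chr9:121495695-121495794, minus strand: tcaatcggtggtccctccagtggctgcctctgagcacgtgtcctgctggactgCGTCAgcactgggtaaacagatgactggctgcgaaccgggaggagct
Tac1, chr6:7554961-7555060, plus strand: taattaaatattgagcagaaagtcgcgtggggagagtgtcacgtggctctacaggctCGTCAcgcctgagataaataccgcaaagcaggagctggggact

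These matches are letters in a window and not measured binding sites. Counted from the start, the element began at base -48 in Sst, -79 in Vip, -47 in Cck and at both -197 and -43 in Tac1, the last pair and that of Cck reading on the opposite strand.

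Between 23078094 and 49949281 reads per library were counted on genes, with group medians of 30203502.5 in HC_water, 34736321.5 in HC_Caffeine, 37367856.5 in MWM_water and 42497897.5 in MWM_Caffeine. Counts are given relative to the TMM-scaled library total, as CPM, normalized counts relative to library size, and "called" means an adjusted p below 0.1 in the quasi-likelihood test of edgeR. Gad1 (323 to 398 CPM) and Slc32a1 (48.1 to 68.5 CPM) of GABAergic neurons, Prox1 (85.9 to 180 CPM) of dentate granule cells and Neurod6 (200 to 334 CPM) of pyramidal cells were present in all 16 libraries. Fos, which is transcribed within minutes of neuronal activity, lay at 1.59 to 6.42 CPM in the 8 home cage libraries and at 11.6 to 18.2 CPM in the 8 learning libraries. The summed level of 9 choroid plexus markers lay at 304 to 2371 CPM in HC_water, 189 to 500 CPM in HC_Caffeine, 159 to 431 CPM in MWM_water and 112 to 201 CPM in MWM_Caffeine, and the part of this in the results below was not tested. Mitochondrial genes took 3.46% to 4.49% of counts in the home cage libraries and 3.23% to 3.59% in the learning libraries. HC_Caffeine replicate 17 stood apart, with the 4.49%, the lowest Neurod6 (200 CPM) and the lowest score on the first principal component of log2 CPM. Libraries of the same group differed by more than sampling noise (chi-square per degree of freedom of 5.66 to 33.3 over 24 pairs), so none was a repeat of another.

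The 10 genes covered a wide range of levels. Per kilobase of annotated exon, the scale on which genes are ordered here, Sst stood highest at 269 ± 61.0 CPM per kb (SD, n = 16 libraries), at percentile 99.6 of the tested genes. The length joins all annotated exons of a gene, whether or not they are used in this tissue, so the order depends on the annotation. Before division by length Cck (274 CPM) stood above Sst (194 CPM). Cck followed at 210 ± 25.0 CPM per kb, with Sst above Cck in 13 of 16 libraries and overlapping ranges. Npy lay at 76.9 ± 13.7 and Penk at 21.2 ± 2.90 CPM per kb, each separated without overlap from its neighbours in the order.

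The next 3 genes lay near the middle of all tested genes: Pdyn at 6.15 ± 1.23, Vip at 4.81 ± 1.07 and Pnoc at 3.75 ± 0.734 CPM per kb. Pdyn exceeded Vip in 12 of 16 libraries and Vip exceeded Pnoc in 13 of 16, and the ranges of these neighbours overlapped. Their order was not tested. Tac1 at 2.01 ± 0.371 and Tac2 at 1.92 ± 0.606 CPM per kb could not be ordered, with Tac1 higher in 9 of 16 libraries, and both lay below Pnoc in every library. Tac2 lay above Crh in 16 of 16 libraries, though over all libraries their ranges overlapped. Crh was lowest at 0.916 ± 0.320 CPM per kb, at percentile 28.3 of the tested genes, from 21 to 73 reads per library.

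**Figure D1:**
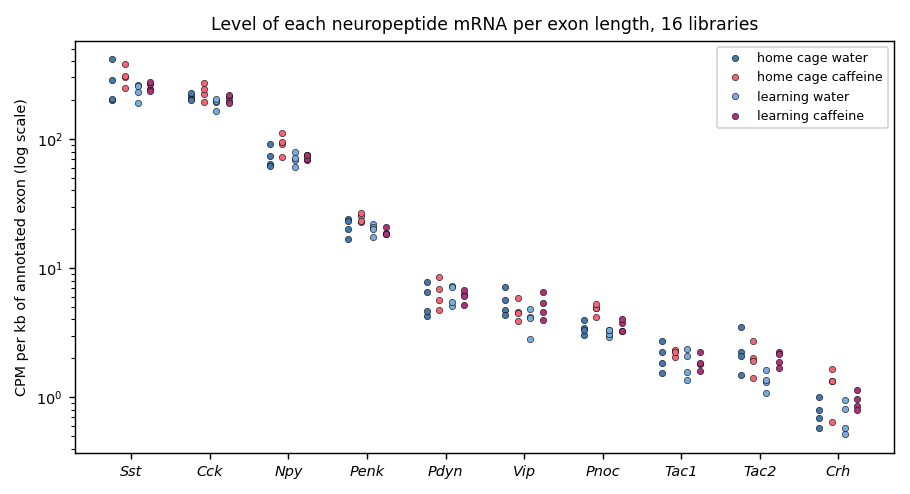
Level of each neuropeptide mRNA in CPM per kb of annotated exon (log axis) in each of the 16 libraries, coloured by group. Sst and Cck lie highest with overlapping ranges, and Crh lies lowest.

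Variation between mice of a group differed among the genes. The biological coefficient of variation estimated by edgeR was 9.15% for Cck, 9.21% for Pnoc and 9.67% for Penk, close to the median of 9.62% over the 17830 tested genes. It was 18% for Sst, 17.8% for Vip and 18.5% for Pdyn, and reached 21.0% for Tac2 and 21.8% for Crh. The median standard error (SE) of a log2 fold change was 0.18 for the 10 genes in the comparison of caffeine with water at rest, against 0.10 for all tested genes.

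Caffeine against water at rest asks what 2 weeks of caffeine alone did to these genes. Pnoc was the member with the clearest difference, at 10.4 ± 0.991 CPM with caffeine and 7.39 ± 0.827 CPM with water (SD, n = 4 each). Of the 10 genes, 8 had a log2 fold change above 0, as had 48.7% of tested genes, and Vip and Tac2 lay below 0, with a median of 0.16 against -0.0031 over all tested genes. The quasi-likelihood test of edgeR called none of the 10, and no gene in the whole table (0% called). Pnoc, Npy, Crh and Penk had an unadjusted p under 0.05, all 4 higher with caffeine, where 1.72% of tested genes were higher at that p. Pnoc was also the 1 member whose groups did not overlap, as were 0.981% of tested genes in that direction. DESeq2's Wald test called Pnoc alone among the 10.

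After training, the same comparison gave no call either (edgeR's quasi-likelihood test, 0% of tested genes called), and DESeq2's Wald test also called none of the 10. Tac2 had the only unadjusted p under 0.05 and was higher with caffeine, as were 1.81% of tested genes at that p. It was also the 1 member without overlap, as were 1.25% of tested genes in that direction. The median log2 fold change of the 10 was 0.12, against -0.0043 over all tested genes, and again 8 lay above 0, where 48.1% of tested genes did, the exceptions being Penk and Pdyn.

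Learning against home cage in water-treated mice asks what maze training did without caffeine. No member was called lower and none higher in edgeR's quasi-likelihood test, against 0.970% of tested genes (114 higher and 59 lower, but 33 and 5 without HC_water replicate 20), and 2 had an unadjusted p under 0.05, Tac2 and Vip, both lower (5.65% of tested genes were lower at that p). DESeq2's Wald test called Tac2. The log2 fold change was below 0 for 9 of the 10, all but Pdyn, as for 51.5% of tested genes, with a median of -0.13 against -0.0055. Without HC_water replicate 6 it was below 0 for 7 of the 10, with 0.04 for Sst, 0.09 for Npy and 0.0063 for Penk.

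In caffeine-treated mice, learning was accompanied by lower Pnoc and Penk, the 2 members called of the 10 (edgeR's quasi-likelihood test), where 5.28% of tested genes were called and 2.13% were called lower. These were also the 2 members without overlap between the groups, as were 5.24% of tested genes in that direction. Both calls were lost without HC_Caffeine replicate 17, the mouse with the highest mitochondrial share (4.49% of counts) and the highest Pnoc and Penk of its group. The mitochondrial share was 3.46% to 4.49% in HC_Caffeine and 3.23% to 3.59% in MWM_Caffeine, and its part in the lower Pnoc and Penk was not tested. Npy and Cck were the other members with an unadjusted p under 0.05, where 9.47% of tested genes were lower at that p. The log2 fold change was below 0 for all but Vip, 9 of 10, as for 52.9% of tested genes, with a median of -0.25 against -0.012. Both caffeine comparisons and both learning comparisons share groups with each other, so their values for a gene are not independent.

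The difference between the learning responses of caffeine- and water-treated mice was tested directly. None of the 10 was called in edgeR's quasi-likelihood test (0% of tested genes) or in DESeq2's Wald test, and 4 had an unadjusted p under 0.05, against 3.63% of tested genes: Tac2 and Vip with a difference above 0, and Pnoc and Penk with a difference below 0. The lower levels of Pnoc and Penk after learning in caffeine-treated mice were thus not shown to be particular to those mice.

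Averaged over both treatments, Pnoc, Penk and Cck, 3 of the 10, were lower after learning in edgeR's quasi-likelihood test, where 14.5% of tested genes were called and 6.71% were called lower. With Npy and Tac2, 5 members were lower at an unadjusted p under 0.05, against 12.9% of tested genes, and 9 of 10 lay below 0, against 54.0%. The average caffeine effect called no member in edgeR's quasi-likelihood test (0% of tested genes), with 3 members at an unadjusted p under 0.05 (Pnoc, Crh and Npy, all higher, as were 1.98% of tested genes at that p) and with Pnoc called in DESeq2's Wald test. All 10 log2 fold changes of the average caffeine effect lay above 0, as for 47.7% of tested genes, with a median of 0.14 against -0.0041. With each library left out in turn, 9 to 10 of them did, against 7 to 9 for caffeine at rest and 6 to 9 after training.

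**Figure D2:**
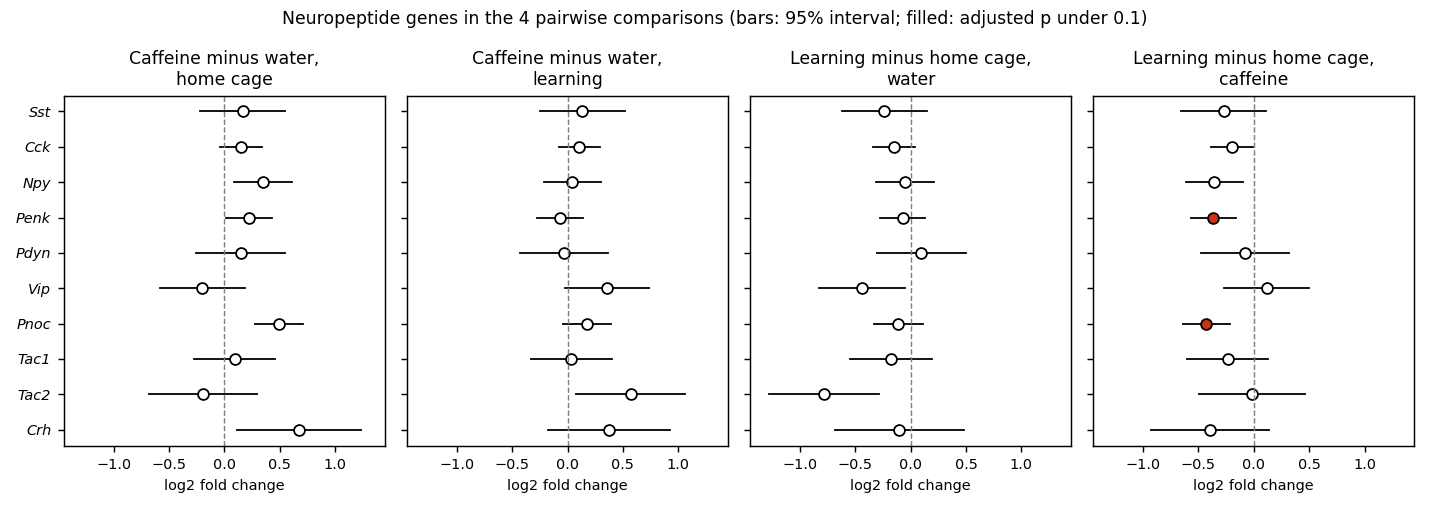
Log2 fold change of each neuropeptide gene in the 4 comparisons of 2 groups, with 95% intervals from edgeR's quasi-likelihood fit, and filled points where the adjusted p was under 0.1. The 2 filled points are Pnoc (-0.43) and Penk (-0.36) in the comparison of learning with home cage in caffeine-treated mice.

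Among the opioid-related genes, Pnoc (ENSMUSG00000045731, chromosome 14 from 65400673 to 65425472) encodes the precursor of nociceptin, the ligand of the receptor Oprl1. Its levels were 8.49, 6.5, 7.37 and 7.20 CPM in HC_water replicates 6, 8, 11 and 20, and 10.5, 10.6, 9.05 and 11.4 CPM in HC_Caffeine replicates 2, 9, 14 and 17. They were 6.29, 6.71, 7.16 and 7.20 CPM in MWM_water replicates 24, 33, 36 and 38, and 8.10, 8.67, 7.06 and 7.04 CPM in MWM_Caffeine replicates 22, 27, 30 and 40. Every HC_Caffeine mouse thus stood above all 12 other mice. At rest, the log2 fold change with caffeine was 0.50 (SE 0.10, 95% interval 0.28 to 0.71), which ranked 8th by p among 17830 genes with an adjusted p of 0.307 in edgeR's quasi-likelihood test. The exact two-sided permutation test over these 8 mice gave p = 0.0286, the smallest that 4 against 4 can give.

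The fold change moved little when 1 mouse was left out, but its call depended on which mice entered. When each library was left out in turn, in 16 fits, the log2 fold change of Pnoc with caffeine at rest ranged from 0.44 to 0.57, and its adjusted p in edgeR from 0.0393, without HC_water replicate 6, to 0.940, without HC_water replicate 20. DESeq2's Wald test gave it an adjusted p of 0.0150. After training, Pnoc lay at 7.72 ± 0.806 CPM with caffeine and 6.84 ± 0.425 CPM with water (SD, n = 4 each), and the log2 fold change was 0.18 with a 95% interval of -0.04 to 0.39.

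With learning in caffeine-treated mice, Pnoc fell by 25.8%, or by 0.43 on the log2 scale (SE 0.10, adjusted p = 0.0322 in edgeR's quasi-likelihood test, exact permutation p = 0.0286). Of the 16 leave-one-out fits, 14 kept the call. It was lost without HC_Caffeine replicate 17 (-0.38, adjusted p = 0.101 in edgeR) and without MWM_Caffeine replicate 30 (-0.39, adjusted p = 0.110 in edgeR). Pnoc in water-treated mice had a log2 fold change of -0.11 (95% interval -0.33 to 0.11), and the caffeine response minus the water response was -0.32 (SE 0.14, unadjusted p = 0.0401 and adjusted p = 1 in edgeR). The average over both treatments was -0.27 (adjusted p = 0.0300 in edgeR), called in 16 of 16 leave-one-out fits.

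Penk (ENSMUSG00000045573, chromosome 4 from 4133531 to 4138819) encodes the precursor of the enkephalins, ligands of the delta and mu opioid receptors. It overlaps A830012C17Rik on the opposite strand, which had 0 to 9 reads per library against 858 to 1717 for Penk. Its levels were 39.2, 38, 33 and 27.7 CPM in HC_water replicates 6, 8, 11 and 20, and 41.6, 37.0, 38.2 and 43.6 CPM in HC_Caffeine replicates 2, 9, 14 and 17. They were 28.3, 35.8, 33.9 and 32.8 CPM in MWM_water replicates 24, 33, 36 and 38, and 30.0, 34.3, 30.4 and 30.0 CPM in MWM_Caffeine replicates 22, 27, 30 and 40. HC_Caffeine mice lay above all learning mice, and overlapped HC_water mice.

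Penk fell by 22.3% with learning in caffeine-treated mice, or by 0.36 on the log2 scale (SE 0.10, adjusted p = 0.0550 in edgeR's quasi-likelihood test, exact permutation p = 0.0286). Of the 16 leave-one-out fits, 11 kept this call. It was lost without HC_Caffeine replicates 2 (adjusted p = 0.136 in edgeR) or 17 (0.154), and without MWM_Caffeine replicates 22 (0.149), 30 (0.146) or 40 (0.145), while the log2 fold change stayed between -0.41 and -0.32. In water-treated mice it was -0.07 (95% interval -0.28 to 0.13), and the responses differed by -0.29 (SE 0.14, unadjusted p = 0.0491 and adjusted p = 1 in edgeR). The average over both treatments was -0.22 (adjusted p = 0.0587 in edgeR), called in 9 of 16 leave-one-out fits, with an adjusted p up to 0.159 without HC_water replicate 6.

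Penk is also strongly made by a class of projection neurons of the striatum, so markers of striatal projection neurons were measured beside it. The list, which holds both Drd1 and Drd2, is not limited to the class that makes Penk. Of 11 such markers 10 were tested, and none was called with learning in caffeine-treated mice in edgeR's quasi-likelihood test. At an unadjusted p under 0.05, 3 were lower, as were 9.47% of tested genes. The median log2 fold change was -0.21, against -0.012 over all tested genes. Drd1, the dopamine D1 receptor gene, lay at 5.46 ± 1.02 CPM in HC_Caffeine and 3.69 ± 0.906 CPM in MWM_Caffeine (SD, n = 4 each). The summed level of the list was 229 to 255 CPM in HC_Caffeine and 213 to 246 CPM in MWM_Caffeine, with overlap. In water-treated mice the marker Ppp1r1b fell by 0.36 on the log2 scale (adjusted p = 0.0948 in edgeR's quasi-likelihood test). The share of tested genes called there was 0.970%. On average Ppp1r1b (-0.28) and Drd1 (-0.46) were called lower, as were 6.71% of tested genes. Their part in the level of Penk was not tested.

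Pdyn (ENSMUSG00000027400, chromosome 2 from 129686565 to 129699844) encodes the precursor of the dynorphins, ligands of the kappa opioid receptor. Its group means were 16.8 ± 4.86, 18.7 ± 4.74, 18 ± 3.24 and 17.6 ± 1.88 CPM in HC_water, HC_Caffeine, MWM_water and MWM_Caffeine (SD, n = 4 each). The 4 groups overlapped, and the 95% interval of the average learning effect ran from -0.28 to 0.29 on the log2 scale.

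**Figure D3:**
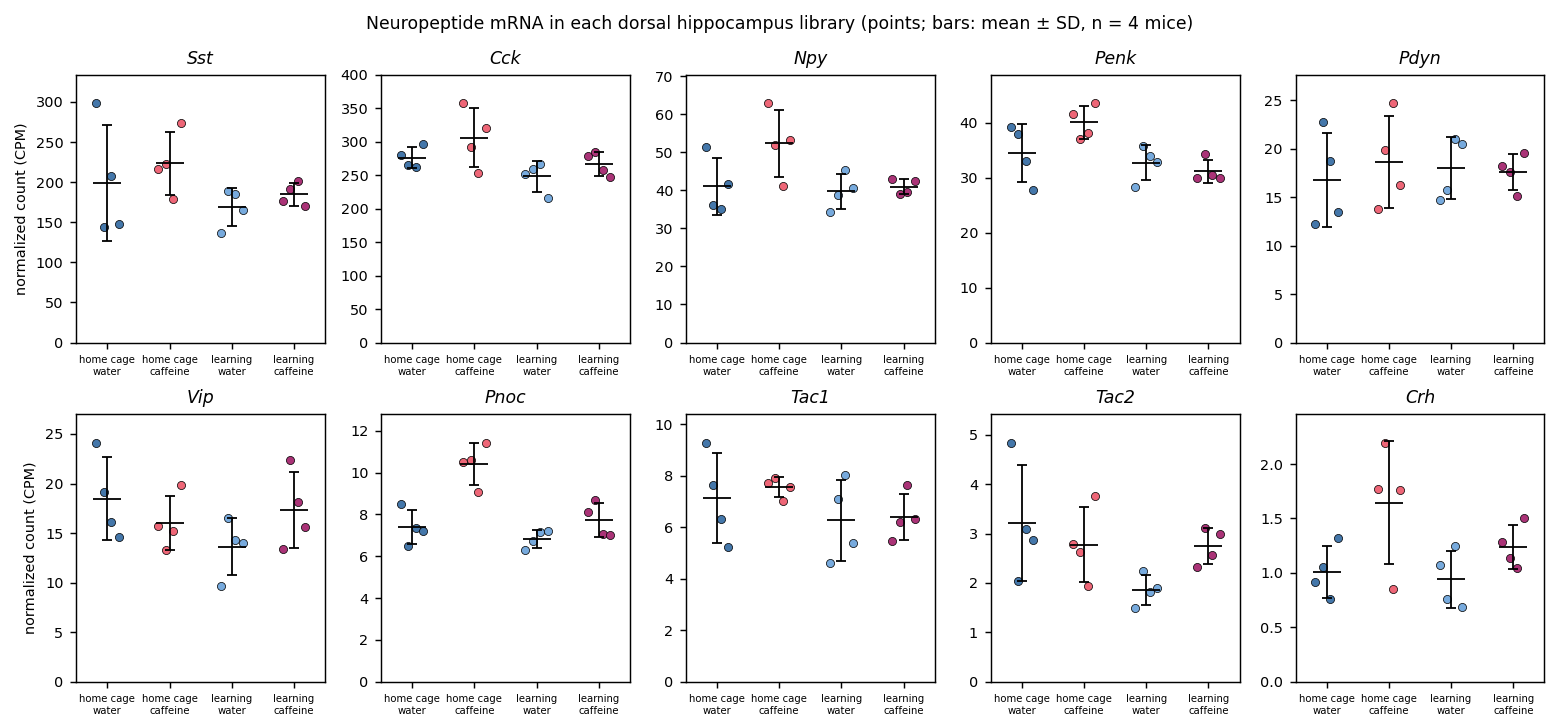
CPM of each neuropeptide gene in each library (points) with the mean and SD of each group of 4 mice, on linear axes from 0. For Pnoc all 4 home cage caffeine points lie above the 12 other points, and for Penk they lie above the 8 learning points.

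Among the genes that mark interneuron classes, Cck (ENSMUSG00000032532, chromosome 9 from 121489824 to 121495694) encodes cholecystokinin. It lay at 262 to 296 CPM in HC_water, 253 to 357 CPM in HC_Caffeine, 215 to 267 CPM in MWM_water and 247 to 285 CPM in MWM_Caffeine, so that learning mice lay lower with overlap in both treatments. The log2 fold change with learning was -0.15 in water-treated mice (adjusted p = 0.523) and -0.20 in caffeine-treated mice (adjusted p = 0.244), and the average was -0.17 (adjusted p = 0.0942), all in edgeR's quasi-likelihood test. Only 2 of the 16 leave-one-out fits kept the call of the average, with an adjusted p of 0.0293 without HC_Caffeine replicate 14 and of 0.0880 without MWM_Caffeine replicate 27. It reached 0.210 without HC_Caffeine replicate 2, where the log2 fold change was -0.12, and -0.096 in caffeine-treated mice. Testing every gene with at least 1 count also ended the call of the average (adjusted p = 0.107 in edgeR).

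Npy (ENSMUSG00000029819, chromosome 6 from 49822710 to 49829507) encodes neuropeptide Y, a peptide that restrains glutamate release. Its levels were 51.5, 36.1, 35.1 and 41.8 CPM in HC_water replicates 6, 8, 11 and 20, and 62.9, 52.0, 41.2 and 53.3 CPM in HC_Caffeine replicates 2, 9, 14 and 17. They were 34.3, 38.8, 45.2 and 40.6 CPM in MWM_water replicates 24, 33, 36 and 38, and 42.9, 39.0, 39.5 and 42.5 CPM in MWM_Caffeine replicates 22, 27, 30 and 40. Of the HC_Caffeine mice, 3 lay above all 12 other mice, and replicate 14 lay among them.

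At rest, the log2 fold change of Npy with caffeine was 0.35 (SE 0.12, unadjusted p = 0.0110, adjusted p = 0.997 in edgeR's quasi-likelihood test). With learning in caffeine-treated mice it was -0.36 (SE 0.12, adjusted p = 0.132 in edgeR), and the call was gained in 2 of the 16 leave-one-out fits. It was -0.45 without HC_Caffeine replicate 14 (adjusted p = 0.0489 in edgeR) but -0.24 without HC_Caffeine replicate 2, and the adjusted p ran up to 0.319 in edgeR. Without HC_water replicate 6, a mouse of neither group, the adjusted p was 0.0969 in edgeR. Npy in water-treated mice had a log2 fold change of -0.05 with learning (95% interval -0.31 to 0.21), and of 0.09 without HC_water replicate 6.

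Sst (ENSMUSG00000004366, chromosome 16 from 23889573 to 23890958) encodes somatostatin, an inhibitory peptide of dendrite-targeting interneurons. Its levels were 298, 144, 207 and 148 CPM in HC_water replicates 6, 8, 11 and 20, so that replicate 6 stood well above its group. The other groups lay at 179 to 274 CPM (HC_Caffeine), 136 to 188 CPM (MWM_water) and 170 to 201 CPM (MWM_Caffeine). No comparison of Sst had an unadjusted p under 0.05. With learning in water-treated mice its log2 fold change was -0.24 (95% interval -0.62 to 0.15), and 0.04 without HC_water replicate 6.

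Vip (ENSMUSG00000019772, chromosome 10 from 5639218 to 5647617) encodes vasoactive intestinal peptide, made by interneurons that inhibit other interneurons. Its group means were 18.5 ± 4.20, 16 ± 2.76, 13.6 ± 2.87 and 17.4 ± 3.83 CPM in HC_water, HC_Caffeine, MWM_water and MWM_Caffeine (SD, n = 4 each). With learning the log2 fold change was -0.44 in water-treated mice (unadjusted p = 0.0293, adjusted p = 0.358 in edgeR's quasi-likelihood test), and -0.27 without HC_water replicate 6. In caffeine-treated mice it was 0.12 (95% interval -0.27 to 0.50), or -0.025 without MWM_Caffeine replicate 27, and the responses differed by 0.55 (SE 0.26, unadjusted p = 0.0464, adjusted p = 1 in edgeR).

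A list of 25 markers of GABAergic interneurons other than these peptides, among them Gad1, Gad2, Slc32a1, Lhx6 and Pvalb, had no call in any of the 7 comparisons in edgeR's quasi-likelihood test, and 0 to 1 of the 25 had an unadjusted p under 0.05 in each. With learning in caffeine-treated mice 0 of the 25 were lower at that p, against 9.47% of tested genes. Their summed level was 1863 to 2041 CPM in HC_water, 1870 to 2063 CPM in HC_Caffeine, 1816 to 2075 CPM in MWM_water and 1906 to 2117 CPM in MWM_Caffeine, and their median log2 fold change with learning in caffeine-treated mice was -0.0034. The summed level of the groups overlapped in every comparison, also where Pnoc and Penk fell. The 8 dentate granule cell markers and the 8 markers of neocortical projection neurons also had no call in any comparison. The cortex is the tissue above the dorsal hippocampus. In each comparison 0 to 2 of each list had an unadjusted p under 0.05. The summed level of the dentate markers differed widely within groups, at 582 to 897 CPM in HC_water and 554 to 931 CPM in HC_Caffeine. It was 688 to 974 CPM in MWM_water and 651 to 916 CPM in MWM_Caffeine, with overlap among the groups. The part of dentate tissue in the levels of the neuropeptide genes was not tested.

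Among the tachykinins, Tac2 (ENSMUSG00000025400, chromosome 10 from 127724478 to 127731768) encodes neurokinin B. Its levels were 4.84, 2.04, 3.10 and 2.87 CPM in HC_water replicates 6, 8, 11 and 20, and 2.79, 2.63, 1.93 and 3.77 CPM in HC_Caffeine replicates 2, 9, 14 and 17. They were 1.49, 2.25, 1.81 and 1.89 CPM in MWM_water replicates 24, 33, 36 and 38, and 2.32, 3.11, 2.57 and 3.00 CPM in MWM_Caffeine replicates 22, 27, 30 and 40. All 4 MWM_water mice lay below the 4 MWM_Caffeine mice. Replicate 33 lay above HC_water replicate 8 and HC_Caffeine replicate 14, and the other 3 lay below all 12 mice of the other groups.

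Tac2 had, with learning in water-treated mice, a log2 fold change of -0.78 (SE 0.24, adjusted p = 0.176 in edgeR's quasi-likelihood test, exact permutation p = 0.0571). It was -0.51 (adjusted p = 0.433 in edgeR) without HC_water replicate 6 and -0.93 (adjusted p = 0.0810 in edgeR) without HC_water replicate 8, the mouse that overlapped. After training, caffeine-treated mice exceeded water-treated mice by a log2 fold change of 0.57 (SE 0.23, unadjusted p = 0.0255, adjusted p = 0.999 in edgeR, exact permutation p = 0.0286). The learning responses differed by 0.76 (SE 0.33, unadjusted p = 0.0320, adjusted p = 1 in edgeR).

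Tachykinin genes are also strongly made in the medial habenula, which borders the dorsal hippocampus. Of 7 medial habenula markers, Pou4f1 was called lower with learning in water-treated mice (adjusted p = 0.0948 in edgeR's quasi-likelihood test), where 0.970% of tested genes were called. It went from 0.46 ± 0.18 to 0.082 ± 0.041 CPM (SD, n = 4 each). Such levels rest on few reads, as Crh, the lowest member, lay at 0.941 ± 0.264 CPM in MWM_water. The 7 markers had a median log2 fold change of -0.57, against -0.0055 over all tested genes. Gpr151, another of them, lay at 1.58 ± 0.678 CPM in HC_water and 0.813 ± 0.254 CPM in MWM_water (SD, n = 4 each, adjusted p = 0.180 in edgeR). The summed level of the 7, to which Nwd2 added the most reads, was 61.7 to 82.5 CPM in HC_water and 73.9 to 81.2 CPM in MWM_water. For the difference between the learning responses the 7 had a median of 0.58, and for caffeine against water after training a median of 0.19, with none called in edgeR and 1 higher at an unadjusted p under 0.05 in each. The part of habenular tissue in the level of Tac2 was not tested.

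Tac1 (ENSMUSG00000061762, chromosome 6 from 7554879 to 7565834) encodes the precursor of substance P and neurokinin A. It lay at 7.12 ± 1.75 CPM in HC_water, 7.55 ± 0.391 CPM in HC_Caffeine, 6.27 ± 1.57 CPM in MWM_water and 6.40 ± 0.909 CPM in MWM_Caffeine (SD, n = 4 each), with overlap in every comparison. The 95% interval of its average learning effect ran from -0.46 to 0.055 on the log2 scale.

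Crh (ENSMUSG00000049796, chromosome 3 from 19693401 to 19695396) encodes corticotropin-releasing hormone, which in the hippocampus is made by interneurons. Its levels were 0.913, 1.05, 0.758 and 1.32 CPM in HC_water replicates 6, 8, 11 and 20, and 1.77, 2.20, 0.851 and 1.76 CPM in HC_Caffeine replicates 2, 9, 14 and 17. Of the HC_Caffeine mice, 3 exceeded all HC_water mice and replicate 14 lay among them. The log2 fold change at rest was 0.67 (SE 0.27, unadjusted p = 0.0218, adjusted p = 0.997 in edgeR's quasi-likelihood test), and after training it was 0.37 (95% interval -0.18 to 0.93) between 0.941 ± 0.264 and 1.24 ± 0.199 CPM (SD, n = 4 each). The wide intervals go with counts of 21 to 73 reads.

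Mice of the same group differed in many of these genes at once. HC_water replicate 6 was the highest of its group for 7 of the 10 genes (Sst, Npy, Vip, Pnoc, Penk, Tac1 and Tac2), HC_Caffeine replicate 17 for 5, and MWM_water replicate 24 was the lowest of its group for 8. HC_Caffeine replicate 14 was the lowest of its group for 7 and the highest for Pdyn. To describe this, the deviation of each library's log2 CPM from its group mean was correlated between genes over the 16 libraries, in 45 pairs, with 100000 permutations within groups and Benjamini-Hochberg adjustment over the pairs. Pearson's r was above 0 in 34 pairs with a median of 0.341, and 9 pairs had an adjusted p under 0.1, against 2 by Spearman's rho. Pairs of other tested genes were not put through this test. The counts are therefore not shown to be particular to neuropeptide genes. The summed dentate granule cell markers were lowest of their group in HC_water replicate 6 (582 CPM) and HC_Caffeine replicate 17 (554 CPM). They were highest of their group in HC_Caffeine replicate 14 (931 CPM). In MWM_water replicate 24, the lowest of its group for 8 genes, these markers were also lowest of the group (688 CPM). The part of dentate tissue in the shared variation was not tested.

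Vip and Penk varied together most closely (r = 0.877, permutation p = 2e-05, adjusted p = 0.0009, and rho = 0.894, adjusted p = 0.0009). Without the 2 libraries farthest from the median of Vip r was 0.824, and with each library left out in turn it ranged from 0.845 to 0.920. Sst and Tac2 came next (r = 0.868, permutation p = 0.00075, adjusted p = 0.0169, and rho = 0.762, adjusted p = 0.0916), with 0.742 without the 2 libraries farthest from the median of Sst and 0.776 to 0.914 with each left out in turn. The other pairs by Pearson's r held Pnoc with Sst (0.732) and with Tac2 (0.750), Vip with Sst (0.656), Tac1 (0.687) and Tac2 (0.617), and Penk with Tac1 (0.720).

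Pdyn went the other way, with r = -0.647 against Cck (permutation adjusted p = 0.0970, rho = -0.544), and its r was below 0 with 8 of the 9 other genes, the exception being Penk (0.0358). Pnoc and Penk, called together with learning in caffeine-treated mice, had r = 0.422 within groups (permutation adjusted p = 0.338). The libraries share no labelled batch, and each group has too few mice for a correlation of its own.

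**Figure D4:**
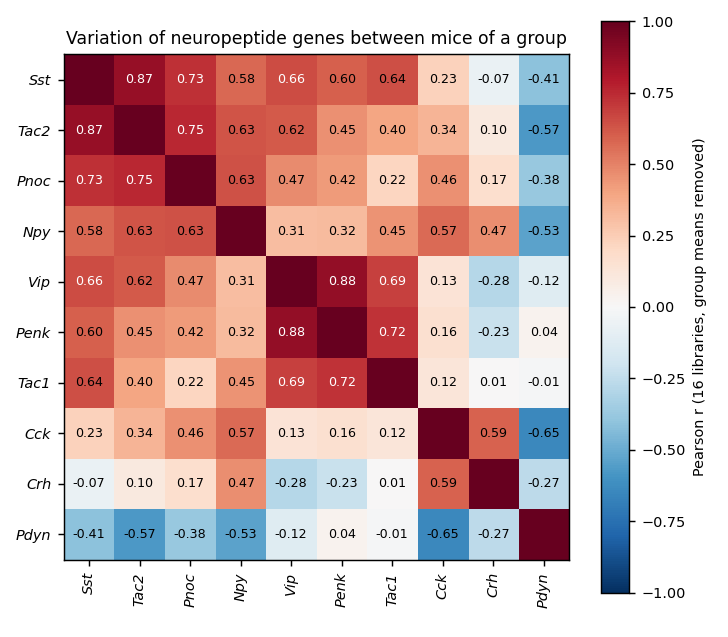
Pearson's r between the deviations of log2 CPM from the group mean for each pair of neuropeptide genes over 16 libraries, in red above 0 and blue below 0. The highest value is that of Vip and Penk (0.877), and Pdyn lies below 0 with every gene but Penk.

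**Figure D5:**
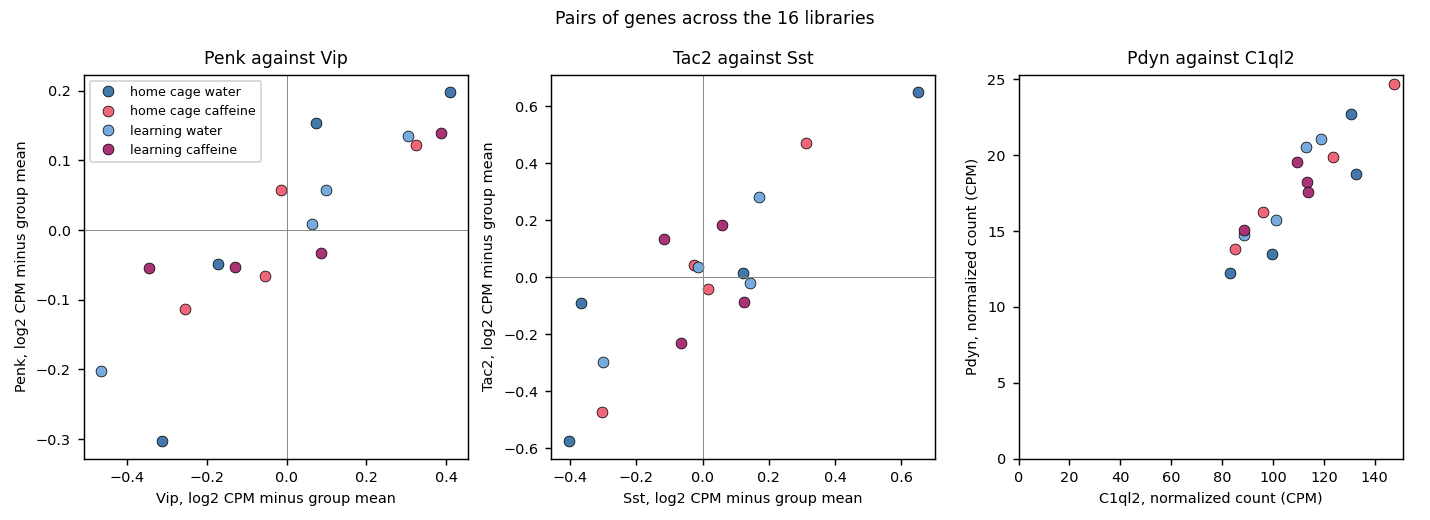
Left and middle, deviation of log2 CPM from the group mean for Penk against Vip and for Tac2 against Sst in the 16 libraries. Right, CPM of Pdyn against CPM of C1ql2, which vary together from 83.2 to 148 CPM of C1ql2 without separation of the 4 groups.

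Over all 16 libraries, the genes whose log2 CPM followed each member most closely were ranked by Pearson's r among 13378 genes (13379 for Crh) whose log2 CPM averaged 1 or more. These values describe the same libraries and carry no test. The closest genes were Astn2 for Sst (0.906), Hpf1 for Npy (0.888), Mpped1 for Vip (0.912), Rxrb for Cck (0.922) and Zfp64 for Pnoc (0.905). They were Rlbp1 for Penk (0.887), Pacsin2 for Pdyn (0.915), Fam49b for Tac1 (0.882), Relt for Tac2 (0.935) and Adck5 for Crh (0.824). Among the 3 closest to Pnoc was Cort, the gene of the somatostatin-like peptide cortistatin (r = 0.842, rho = 0.841), and among the 3 closest to Pdyn was C1ql2 (r = 0.909, rho = 0.865), which is in the list of dentate granule cell markers.

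The receptors of these peptides were followed as a list of 23 genes, of which 19 were tested and Sstr5, Npy4r, Cckar and Tacr2 had at most 17 reads in any library. None was called in the 4 comparisons of 2 groups in edgeR's quasi-likelihood test, and 0 to 4 of the 19 had an unadjusted p under 0.05. The 4 came with learning in caffeine-treated mice, where 2 were higher and 2 lower. Of all tested genes 9.47% were lower at that p. The nociceptin receptor gene Oprl1 lay at 44.9 CPM on average, with a log2 fold change of 0.08 with learning in caffeine-treated mice, where Pnoc fell. On average over both treatments, 3 of the 19 were called, where 14.5% of tested genes were called. Npy5r was higher after learning (0.26, adjusted p = 0.0294), and Cckbr (-0.38, adjusted p = 0.0222) and Crhr2 (-0.49, adjusted p = 0.0543) were lower in edgeR's quasi-likelihood test. These 3 genes were named after their values were seen. Crhr2 lay at 2.52 ± 0.576 CPM in HC_water and 1.54 ± 0.125 CPM in MWM_Caffeine (SD, n = 4 each). The summed choroid plexus markers were also highest in HC_water and lowest in MWM_Caffeine. The dependence of Crhr2 on that tissue was not tested. Cckbr is the main brain receptor of cholecystokinin. Cck was also called lower in the average learning response, but only 2 of the 16 leave-one-out fits kept that call.

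Among 19 genes of peptide processing and dense-core granules, Pcsk1 was the only one called in a comparison of 2 groups. With learning, 0.970% of tested genes were called in water-treated mice and 5.28% in caffeine-treated mice. Pcsk1 encodes a convertase that cuts precursors such as those of Penk and Pdyn. It rose with learning from 20.4 ± 1.63 to 27.6 ± 1.68 CPM in water-treated mice (log2 fold change 0.43, adjusted p = 0.00357) and from 19.9 ± 0.184 to 25.5 ± 0.833 CPM in caffeine-treated mice (0.36, adjusted p = 0.00572), with SD over n = 4 each and edgeR's quasi-likelihood test. Furin, another convertase, rose in the average (0.16, adjusted p = 0.0179 in edgeR), and was named after its values were seen. The other 17, among them Pcsk2, Cpe, Pam, Chga and Scg2, were not called in any comparison.

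Of 13 genes that bind or degrade peptides, Ace alone was called, lower with learning in water-treated mice (-0.99, adjusted p = 0.0401 in edgeR's quasi-likelihood test). Of all tested genes 0.970% were called there. Ace, which is also made by the choroid plexus, lay at 25.9 ± 9.53 CPM in HC_water and at 10.4 to 13.1 CPM on average in the other groups, and the summed choroid plexus markers were also highest in HC_water. Its dependence on that tissue was not tested. Crhbp, which binds corticotropin-releasing hormone, had no call, with a log2 fold change of 0.24 with caffeine at rest (SE 0.17).

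Of 44 other neuropeptide genes, 42 were in the table and 24 were tested. Adm, the adrenomedullin gene, was the only one called between 2 groups. It rose with learning in caffeine-treated mice from 0.775 ± 0.222 to 1.66 ± 0.454 CPM (SD, n = 4 each, log2 fold change 1.07, adjusted p = 0.0366 in edgeR's quasi-likelihood test). Of all tested genes 5.28% were called there. Edn1, the endothelin gene, fell in the average (-0.72, adjusted p = 0.0229 in edgeR), where 6.71% of tested genes were called lower. Cort lay at 4.95 ± 1.53 CPM in HC_water and 7.23 ± 1.01 CPM in HC_Caffeine (SD, n = 4 each), and its log2 fold change was 0.56 with an unadjusted p of 0.00923 and an adjusted p of 0.997 in edgeR. The median log2 fold change of the 24 with learning in caffeine-treated mice was -0.11, against -0.012 over all tested genes. In that comparison 5 of the 24 were lower and 1 was higher at an unadjusted p under 0.05 in edgeR. Of all tested genes 9.47% were lower at that p.

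Of the 13 activity-dependent genes, 9 were called higher with learning in water-treated mice and 8 in caffeine-treated mice, in edgeR's quasi-likelihood test. Of all tested genes 0.970% and 5.28% were called there. Egr2 led these genes, with log2 fold changes of 3.6 and 3.3. The 4 neuropeptide genes whose windows hold TGACG were not called in these comparisons. Among water-treated mice their log2 fold changes with learning were -0.24 for Sst, -0.44 for Vip, -0.15 for Cck and -0.18 for Tac1. In caffeine-treated mice they were -0.27 for Sst, 0.12 for Vip, -0.20 for Cck and -0.23 for Tac1. Single mice moved several of these values. In water-treated mice, Sst was 0.04 and Tac1 -0.011 without HC_water replicate 6, and Cck -0.087 without MWM_water replicate 38. In the caffeine-treated, Vip was -0.025 without MWM_Caffeine replicate 27, Cck -0.096 without HC_Caffeine replicate 2, Sst -0.15 without HC_Caffeine replicate 17 and Tac1 -0.15 without MWM_Caffeine replicate 22. Of 8 thalamus markers, 4 were called with learning in caffeine-treated mice, where 5.28% of tested genes were called. Rgs16 (0.40) was higher, and Plekhg1 (-0.36), Synpo2 (-0.34) and Zic4 (-0.96) were lower, where 2.13% of tested genes were called lower. Tcf7l2, Prkcd, Lef1 and Calb2 were not called. The summed level of the 8 was 98.7 to 143 CPM in HC_Caffeine and 92.7 to 117 CPM in MWM_Caffeine, and its part in the lower Pnoc and Penk was not tested.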

How the data were processed

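The authors made stranded mRNA libraries from 4 biological replicates a group, sequenced single-end reads of 50 bases, aligned these with STAR and Bowtie 2 on mm10, kept reads with 1 alignment and counted them with HTSeq 0.6.1p1 on Ensembl release 90 genes. The deposited values are raw read counts without normalization or pooling. Whether the counting used strand is not given in the sources used here.

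From these counts, TMM normalization, the filterByExpr filter and the quasi-likelihood test of edgeR 4.0.16 (R 4.3.3) were run in 1 model over 16 libraries with a mean per group, with Benjamini-Hochberg adjustment over 17830 genes and calls at an adjusted p under 0.1. Intervals are 95% intervals of that fit, and the log2 values used for correlations have a prior count of 2. Exact permutation tests are two-sided. In this model a p-value sets a difference against the spread between replicates, and the 4 groups share 1 estimate of that spread. Positions and exon lengths come from GENCODE M21 (35247 of 35328 genes matched). On counts simulated for learning against home cage under caffeine, run on 17830 genes, 149 of the 200 genes changed were recovered by edgeR, 22 others were called, and 63 of 100 genes changed by 0.5 on the log2 scale were among those recovered. The changed genes were drawn at random from all tested genes. In that comparison the median SE was 0.10 for all tested genes and 0.18 for the 10 members, so this share does not apply to the members.

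The fitted medians of all genes stayed within 0.1 of 0. The members and all gene lists were chosen with earlier results of these data known. Genes are named if they are members, the most changed called genes of a list, or the 3 most correlated with a member; Npy5r, Crhr2, Cckbr, Furin, Edn1, Cort, Oprl1, Crhbp, Drd1 and Gpr151 were named after their values were seen. Calb2, Lamp5 and Bdnf each stand in 2 lists. Alternatives were DESeq2 1.42.0 size factors, DESeq2's Wald test, fits on the compared groups only, 2 other count filters (at least 1 count in total, at least 10 in every library), an adjusted p under 0.05, edgeR's robust option, thinning to 23078094 counts, correlations of CPM, and each library left out in turn.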

Additional observations from a re-analysis of the deposited data

Results flagged for a closer look

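In MWM_Caffeine, Penk stood at 34.3 CPM in replicate 27 against 30.0 to 30.4 CPM in the other 3 mice, a gap large enough to pass Dixon's test for an outlying value at the 95% level. It was the only one of 40 sets of 1 gene in 1 group to do so, where chance flags about 1 in 20. The same mouse had the highest Vip of its group (22.4 CPM). Without it, the log2 fold change of Penk with learning in caffeine-treated mice was -0.41 (adjusted p = 0.0523 in edgeR's quasi-likelihood test), close to the value with it.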

How the results depend on the processing

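Among the 70 values of 10 genes in 7 comparisons, no called value changed sign, and of 530 values under alternatives that kept all libraries 519 stayed on the same side of the threshold, 7 gained a call and 4 lost one. DESeq2's Wald test called 1 member with caffeine at rest and 1 in the average caffeine effect, Pnoc in both, and 1 with learning in water-treated mice, Tac2. Testing every gene with at least 1 count also gave 1 call with caffeine at rest and 1 in the average caffeine effect, again Pnoc, and left 2 in the average learning response, where Cck was lost. At an adjusted p under 0.05, 1 member remained with learning in caffeine-treated mice and 1 in the average learning response, Pnoc in both. DESeq2's Wald test and the weaker filter each added Npy with learning in caffeine-treated mice. The causes of these shifts were not tested. Over the whole table, learning in water-treated mice gave 114 higher and 59 lower calls, against 282 and 144 in DESeq2's Wald test and 66 and 19 on the compared groups, and learning in caffeine-treated mice gave 563 and 379, against 985 and 596, and 352 and 265. At an adjusted p under 0.05 they gave 50 and 20, and 293 and 156, and the average learning response gave 819 and 565, against 1393 and 1197. Testing every gene with a count gave 193 and 97 with learning in water-treated mice, and thinning gave 70 and 37. Where edgeR called no gene, DESeq2's Wald test called 2 higher and 17 lower with caffeine at rest, 1 and 6 after training, 1 and 6 for the difference between responses and 3 and 12 in the average caffeine effect, and testing every gene with a count gave 3 and 31, 1 and 7, 0 and 9, and 5 and 31. The robust option called 1 gene lower with caffeine at rest. DESeq2's size factors, fits on the compared groups, at least 10 counts in every library, edgeR's robust option and thinning gave the same number of called members in every comparison for which they were run. Fits on the compared groups were not run for the difference between responses or for the averages.

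With each library left out in turn, the number of called members was 0 to 1 with caffeine at rest, 0 to 0 after training, 0 to 1 with learning in water-treated mice, 0 to 4 with learning in caffeine-treated mice, 0 to 0 for the difference between responses, 1 to 5 for the average learning response and 0 to 1 for the average caffeine effect. The 4 and the 5 came without HC_Caffeine replicate 14, and the 0 with learning in caffeine-treated mice without HC_Caffeine replicate 17 or MWM_Caffeine replicate 30. Over the whole table, learning in caffeine-treated mice gave 281 higher and 125 lower calls without HC_Caffeine replicate 17, and 249 and 133, 333 and 179, and 409 and 167 without MWM_Caffeine replicates 30, 40 and 22. Learning in water-treated mice gave 33 and 5 without HC_water replicate 20, 35 and 12 without HC_water replicate 11, 30 and 7, 44 and 10, and 68 and 30 without MWM_water replicates 36, 33 and 38, 73 and 36 without MWM_Caffeine replicate 30, and 217 and 95 without HC_Caffeine replicate 17. Caffeine at rest gave 2 and 31 without HC_water replicate 6, and the average caffeine effect 1 and 23. Correlations of CPM in place of log2 CPM gave 0.874 for Vip and Penk and 0.908 for Sst and Tac2. No paired analysis was possible because no replicate number occurs in more than 1 group. Depth limits mainly Crh and Tac2, with 21 to 145 reads per library.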
